A study of Homo sapiens with 12 samples.

Results

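The elongation factors and other TOP mRNAs described here are 10 transcripts, 1 for each of EEF1A1, EEF1B2, EEF1D, EEF1G, EEF2, TPT1, PABPC1, NAP1L1, HNRNPA1 and RACK1. They were picked by gene name from the textbook class of mRNAs with a terminal oligopyrimidine tract. The rule holds no measured value, but the choice was made with earlier results of these data known. They make up 10 of the 19972 transcripts in the deposited count table. All 10 had enough counts to be tested in RNA, in footprints and in the ratio of both.

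An mRNA of the TOP class begins at its cap with a C followed by an unbroken run of pyrimidines. Nearly all ribosomal proteins, the elongation factors that carry aminoacyl-tRNA to the ribosome and move it along the mRNA, and a few further factors are encoded by such mRNAs. Their translation is controlled as a group by the kinase complex mTORC1. It acts through the 4E-BP family, inhibitors of the cap-binding protein eIF4E, and through LARP1. LARP1 binds the cap and the adjoining pyrimidines of these mRNAs. Neurons use this control during growth, when local and global supply of ribosomes and elongation factors is adjusted to nutrients and growth signals.

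The cells were neurons induced from H1, an established line of human embryonic stem cells, by overexpression of Ngn2, a transcription factor that drives neuronal fate, and were collected at day in vitro 14. They were either homozygous for an LLPH allele named Nterm (Nterm/Nterm) or wild type at LLPH (wt/wt), and each genotype gave 3 Ribo-seq and 3 RNA-seq libraries. LLPH encodes a small protein related to an Aplysia factor of learning, and what the Nterm allele changes in it was not given in the sources used here. Both genotypes had 2 µg/mL doxycycline and 4 µM cytosine arabinoside, which kills dividing cells, in their medium from day 5, received no glia, and were harvested in cycloheximide at 100 µg/mL. The labels do not state whether the 3 libraries of a group came from separate cultures or clones, so p-values cover the spread between these libraries, which may be technical.

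RNA libraries held between 18944427 and 21478215 counts in Nterm/Nterm and between 21834425 and 25089790 in wt/wt. Footprint libraries held between 12652833 and 15177310 counts in Nterm/Nterm and between 13155130 and 16356419 in wt/wt. The genotype tag of the 6 Ribo-seq samples names the opposite genotype to their titles, so each footprint value below rests on the titles and on the matching names in the count table. LLPH itself had 39, 22 and 36 footprints in the libraries titled Nterm/Nterm and 88, 135 and 98 in those titled wt/wt, without overlap. Library 2 of the wt/wt footprints stood apart in scaling, with a TMM factor of 1.042 against 0.9807 to 1.002 in the other 5.

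The tract that defines the class can be read at the annotated starts of the members. RefSeq's promoter table for GRCh38.p14 held 7 of the 10 members, and 6 of these 7 had a C within 5 bases of an annotated start that opened a run of at least 5 pyrimidines. The 30 bases below comprise the 10 before and the 20 from the annotated start, 5′ to 3′ on the gene's strand, and the capitals mark the run as counted from the annotated first base. They are shown because the run is the feature by which the class is named, and because EEF1G and 1 of the 2 EEF1B2 starts lack it in this window. The coordinates are those of GRCh38.p14 and were not used to place any count, since the counts were made on GRCh37.
EEF1A1, chr6:73521013-73521042, minus strand: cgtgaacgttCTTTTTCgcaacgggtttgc
EEF1B2, first start, chr2:206159599-206159628, plus strand: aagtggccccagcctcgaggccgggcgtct
EEF1B2, other start, chr2:206159885-206159914, plus strand: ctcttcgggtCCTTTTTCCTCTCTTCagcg
EEF1G, chr11:62573872-62573901, minus strand: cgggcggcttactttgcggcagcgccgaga
EEF2, chr19:3985444-3985473, minus strand: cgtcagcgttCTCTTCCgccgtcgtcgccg
TPT1, chr13:45341164-45341193, minus strand: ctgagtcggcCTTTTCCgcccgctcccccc
NAP1L1, chr12:76084666-76084695, minus strand: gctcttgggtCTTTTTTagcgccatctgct
RACK1, chr5:181243887-181243916, minus strand: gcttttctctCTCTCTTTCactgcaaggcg

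In the 6 members with a run, the annotated first base was a C. Counted from there the run was 16 bases long in EEF1B2, 9 in RACK1 and 7 in EEF1A1, EEF2, TPT1 and NAP1L1. In all 6 a pyrimidine also stands directly before that base. Only in TPT1 and RACK1 did a C within 5 bases open a longer run, of 8 in TPT1 and 13 in RACK1. By the same rule a run was found for 53 of 62 ribosomal protein genes (85.5%) and for 13 of 14 further TOP genes (92.9%), against 25.2% of all 27305 genes of the table, 21.1% of its 35116 promoters and 30.1% of the 8745 named and tested transcripts outside these lists. A match describes these letters only, since the starts that the neurons used were not mapped, and EEF1G's lack of a match says only that the letters are not in this window.

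In Nterm/Nterm neurons the RNA of 5 of the 10 members fell, EEF1A1, EEF1G, EEF2, PABPC1 and RACK1, and none rose, by edgeR's quasi-likelihood test with a Benjamini-Hochberg adjusted p under 0.05. Over all 14659 transcripts tested in RNA, 10.6% fell by the same test. The fitted change was below 0 for 9 of 10 members, against 50.1% of all tested transcripts, and the members' median log2 change was -0.11, against a median of 0.00 over all tested.

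Together the 10 transcripts took 1.513%, 1.42% and 1.429% of RNA counts in the Nterm/Nterm libraries and 1.639%, 1.594% and 1.562% in the wt/wt libraries. The Nterm/Nterm shares lay below all wt/wt shares. Footprint shares were 0.4772%, 0.4827% and 0.4534% in Nterm/Nterm and 0.4416%, 0.4045% and 0.4546% in wt/wt, where Nterm/Nterm library 3 lay just below wt/wt library 3. The 95% Wilson intervals, which cover counting error only, were narrow beside this spread, as with 1.508% to 1.518% for Nterm/Nterm RNA library 1 and 0.4734% to 0.481% for Nterm/Nterm footprint library 1.

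EEF1A1 encodes the GTPase that delivers aminoacyl-tRNA to the ribosome, and it made up between 49.7% and 50.9% of the members' RNA counts in every library. Its RNA stood at 7703, 7021 and 7174 CPM (counts scaled to library size) in Nterm/Nterm and at 8244, 8030 and 7885 CPM in wt/wt. The groups did not overlap, and the log2 change was -0.14 ± 0.040 (SE, n = 3 each, adjusted p = 0.0296). Its footprints ran the other way at 1673, 1640 and 1481 CPM in Nterm/Nterm, against 1541, 1242 and 1504 CPM in wt/wt. There the groups overlapped, since Nterm/Nterm library 3 lay below wt/wt libraries 1 and 3, and the change of 0.16 ± 0.096 (SE) did not pass the test (adjusted p = 0.294).

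**Figure D1:**
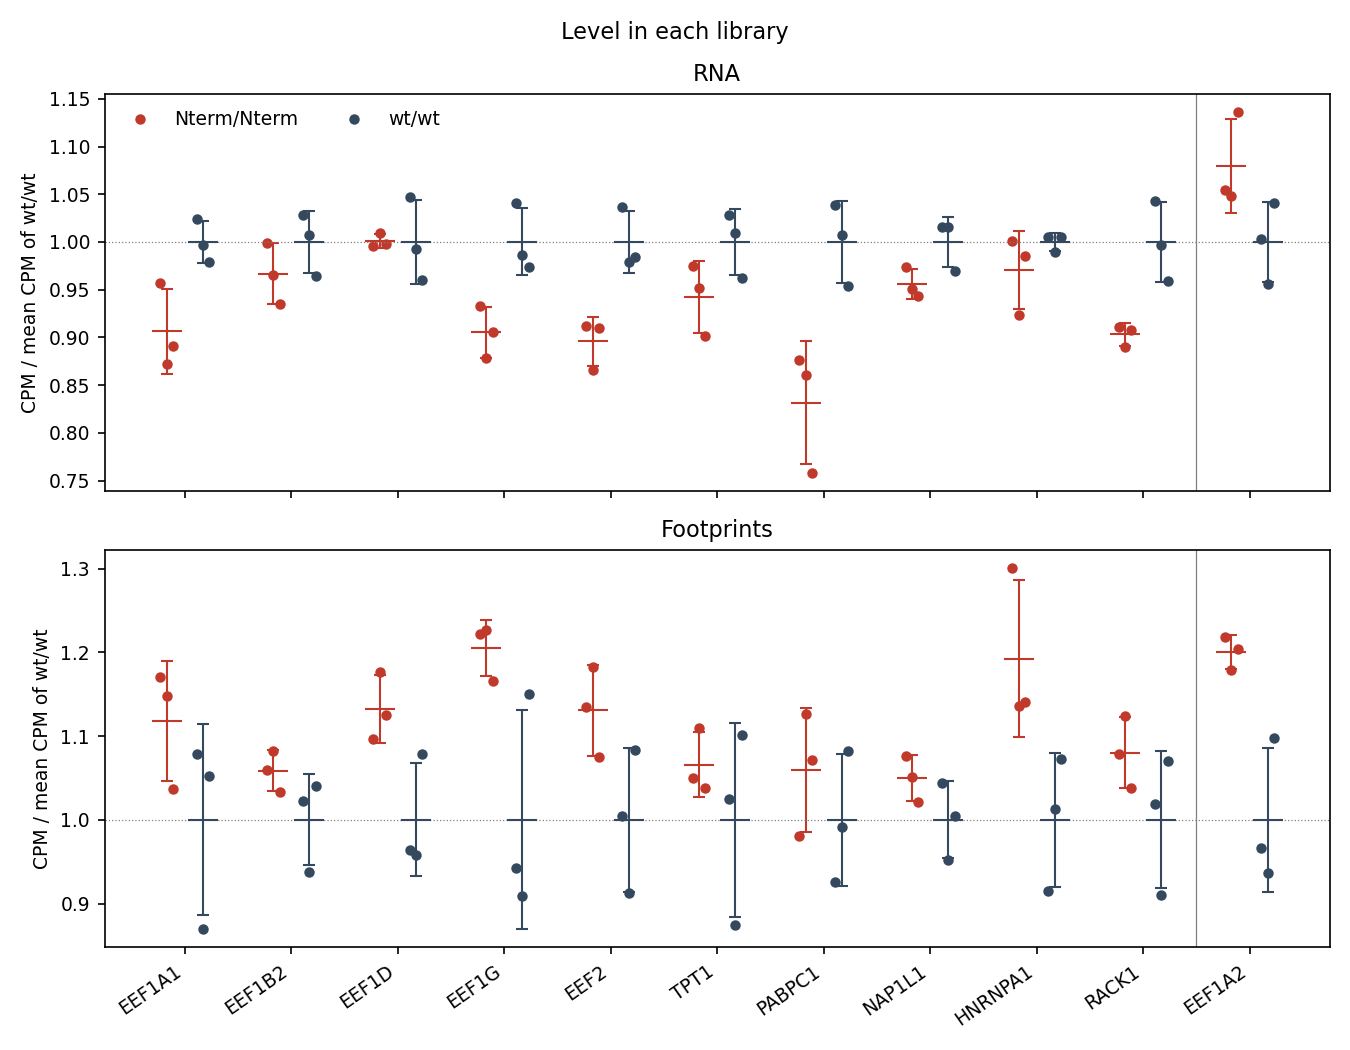
CPM of each member, and of EEF1A2 right of the line, in each library divided by the mean CPM of the wt/wt libraries, for RNA (top) and footprints (bottom). Points are libraries, Nterm/Nterm left of wt/wt, and bars are the mean and SD (n = 3). RNA points of EEF1A1, EEF1G, EEF2, PABPC1 and RACK1 lie wholly below those of wt/wt, and footprint points of EEF1D, EEF1G and HNRNPA1 wholly above.

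EEF1B2, EEF1D and EEF1G encode the α, δ and γ subunits of eEF1B, the complex that reloads eEF1A with GTP. Of the 3 subunits only EEF1G passed the RNA test, and differences between the subunits were not tested. EEF1G had 1201, 1132 and 1166 CPM in Nterm/Nterm and 1340, 1271 and 1254 CPM in wt/wt, without overlap, and fell with a log2 change of -0.14 ± 0.0401 (SE, adjusted p = 0.0285). EEF1B2 had 166.3, 160.8 and 155.7 CPM in Nterm/Nterm and 171.2, 167.7 and 160.5 CPM in wt/wt. For EEF1B2 the 2 groups overlapped, and its change of -0.05 ± 0.0442 did not pass the test (adjusted p = 0.487). EEF1D had 95.42, 96.77 and 95.7 CPM in Nterm/Nterm and 100.4, 95.11 and 92.06 CPM in wt/wt, so the wt/wt libraries lay on both sides of the Nterm/Nterm ones. Its change of 0.00 had a 95% interval of -0.10 to 0.10.

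In footprints, all 3 subunits had fitted changes above 0, and none passed the test. EEF1G was thinly covered, with 204, 211 and 237 footprints in Nterm/Nterm and 165, 207 and 213 in wt/wt, or 16.33, 16.4 and 15.59 CPM against 12.6, 12.15 and 15.37 CPM. The groups did not overlap, although Nterm/Nterm library 3 and wt/wt library 3 were close, and the change was 0.27 ± 0.114 (SE, adjusted p = 0.127). EEF1D had 132, 141.6 and 135.4 footprint CPM in Nterm/Nterm and 116.1, 115.4 and 129.8 CPM in wt/wt, again without overlap, with a change of 0.18 ± 0.0677 (adjusted p = 0.087). EEF1B2 had 194.9, 199 and 190.1 CPM in Nterm/Nterm and 188, 172.5 and 191.3 CPM in wt/wt, which overlapped, with a change of 0.08 ± 0.0661 (adjusted p = 0.454).

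EEF2 encodes the GTPase that moves the ribosome by 1 codon after each peptide bond. Its RNA stood at 2647, 2514 and 2641 CPM in Nterm/Nterm and at 3010, 2841 and 2857 CPM in wt/wt. Every Nterm/Nterm library lay below every wt/wt library, and the fall was -0.16 ± 0.0384 on the log2 scale (SE, adjusted p = 0.015). Its footprints were 1561, 1627 and 1479 CPM in Nterm/Nterm and 1382, 1255 and 1490 CPM in wt/wt, with Nterm/Nterm library 3 just below wt/wt library 3. The footprint change of 0.18 ± 0.0895 (SE) did not pass the test (adjusted p = 0.208).

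PABPC1 encodes the main cytoplasmic protein that binds poly(A) tails, and it showed the deepest RNA fall of the 10. It had 824.3, 809.6 and 712.3 CPM in Nterm/Nterm and 976.3, 947.3 and 897.1 CPM in wt/wt. The lowest library was Nterm/Nterm 3, the groups did not overlap, and the log2 change was -0.27 ± 0.0548 (SE, adjusted p = 0.00746). On the linear scale it fell by 16.8%. In footprints the groups overlapped, at 113.3, 130.2 and 123.9 CPM in Nterm/Nterm and 107, 114.6 and 125.1 CPM in wt/wt, and the change was 0.08 ± 0.073 (adjusted p = 0.494).

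RACK1 encodes a scaffold protein that sits on the small ribosomal subunit. Its RNA was 542.1, 529.3 and 540.2 CPM in Nterm/Nterm and 620.6, 593.2 and 570.6 CPM in wt/wt, without overlap, and fell with a log2 change of -0.15 ± 0.0409 (SE, adjusted p = 0.028). Footprints of RACK1 were 526.1, 548.3 and 506.5 CPM in Nterm/Nterm and 497.1, 444.1 and 522.2 CPM in wt/wt. The footprint groups overlapped, and the change was 0.11 ± 0.0772 (adjusted p = 0.374).

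TPT1, NAP1L1 and HNRNPA1 did not pass the RNA test. TPT1 encodes the translationally controlled tumour protein, and its RNA stood at 965.6, 943.1 and 892.7 CPM in Nterm/Nterm and at 1019, 999.3 and 953.2 CPM in wt/wt, with 1 Nterm/Nterm library above the lowest wt/wt library (log2 change -0.09 ± 0.0424, adjusted p = 0.189). NAP1L1, a histone chaperone, had 281.1, 274.3 and 272.2 CPM in Nterm/Nterm and 293, 293.1 and 279.8 CPM in wt/wt, again with 1 library crossing over (-0.07 ± 0.0395, adjusted p = 0.28). HNRNPA1, an RNA-binding protein that acts in splicing and mRNA export, had 693.8, 640.2 and 683 CPM in Nterm/Nterm and 696.7, 685.7 and 696.4 CPM in wt/wt (-0.04 ± 0.0404, adjusted p = 0.496). Their 95% intervals reached down to -0.18 for TPT1, -0.15 for NAP1L1 and -0.13 for HNRNPA1.

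Among these 3, HNRNPA1 was the member whose footprints did not overlap. It had 31.07, 27.13 and 27.23 CPM in Nterm/Nterm and 21.84, 24.18 and 25.62 CPM in wt/wt, all Nterm/Nterm libraries being higher, with a change of 0.25 ± 0.0933 (SE, adjusted p = 0.0829). These values rest on 349 to 414 footprints per Nterm/Nterm library and 286 to 412 per wt/wt library. TPT1 had 288, 304.6 and 284.7 CPM in Nterm/Nterm and 281.2, 239.8 and 302.2 CPM in wt/wt, and its change of 0.09 ± 0.0789 became 0.00 without wt/wt footprint library 2. NAP1L1 had 298.3, 291.6 and 283.3 CPM in Nterm/Nterm and 289.4, 264.1 and 278.4 CPM in wt/wt, with a change of 0.07 ± 0.0673.

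Across the 10 members, RNA and footprints thus had fitted changes of opposite sign in 9, the exception being EEF1D. The 5 members that fell in RNA were also the 5 whose RNA libraries did not overlap, against 18.8% of all tested transcripts that were lower without overlap. In footprints no member was called by edgeR, DESeq2 or limma-voom, against 13.3% of all 13566 tested transcripts called in either direction by edgeR. At an unadjusted p under 0.05, 3 members stood higher (EEF1D, EEF1G and HNRNPA1), against 11.9% of all tested. The same 3 had footprint libraries that did not overlap, against 14.8% of all tested transcripts that were higher without overlap. All 10 footprint changes were fitted above 0, against 52.1% of all tested, with a median of 0.14 in the members and 0.01 over all tested. The footprint median was 0.07, and 9 of 10 members were above 0, without wt/wt footprint library 2, in which the members stood lowest.

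**Figure D2:**
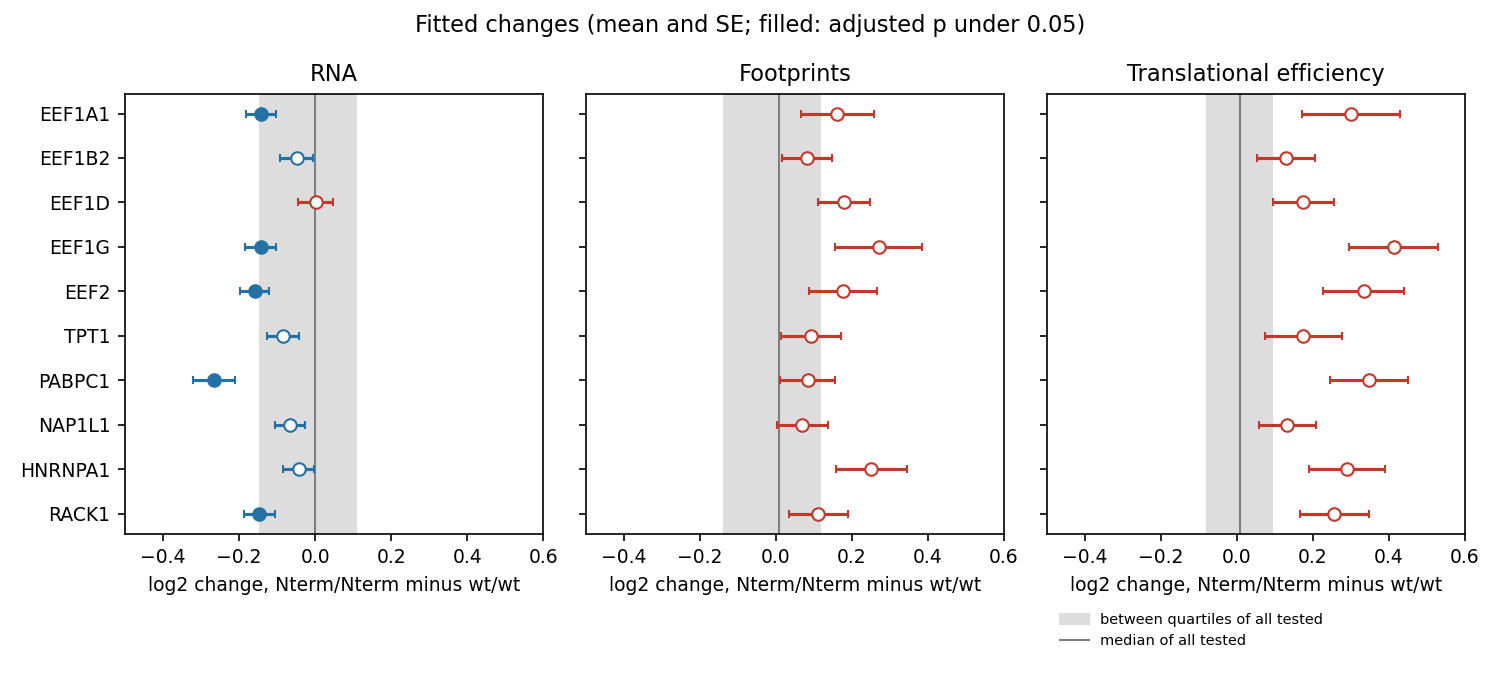
Fitted log2 change (Nterm/Nterm minus wt/wt) of the 10 members in RNA, footprints and translational efficiency, with bars of 1 SE; filled points passed an adjusted p of 0.05. The grey band runs between the quartiles of all tested transcripts and the line is their median; 5 RNA points are filled, and all translational efficiency points lie right of the band.

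The RNA calls depended on single libraries. Without wt/wt RNA library 1 none of the 5 passed, with adjusted p between 0.0532 (PABPC1) and 0.16 (EEF1G), and without wt/wt library 2 only PABPC1 passed, with the other 4 between 0.0593 (EEF2) and 0.123 (EEF1A1). Without Nterm/Nterm library 2, EEF2 and PABPC1 passed and EEF1A1 (0.0711), EEF1G (0.0688) and RACK1 (0.0594) did not, while RACK1 (0.0638) missed without Nterm/Nterm library 1 and EEF1A1 (0.0632) without Nterm/Nterm library 3. The changes of the 5 stayed below 0 in each of these fits, and the members' median stayed between -0.14 and -0.09.

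Translational efficiency, which sets a transcript's footprints against its RNA, was fitted above 0 for all 10 members, against 52.8% of all 13422 transcripts tested. The test was the assay-by-genotype interaction in 1 fit of 12 libraries, so it rests on the same counts as the RNA and footprint changes and is no independent result. The members' median log2 change was 0.27, against 0.01 over all tested, and no member passed the adjusted threshold by edgeR or limma-voom. Over all transcripts only 3, or 0.0224%, were called by edgeR. At an unadjusted p under 0.05, 7 members stood higher, against 2.9% of all tested, the exceptions being EEF1B2, TPT1 and NAP1L1.

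EEF1G had the greatest efficiency change, 0.41 ± 0.118 (SE, unadjusted p = 0.00208), or 1.33-fold. PABPC1 followed with 0.35 ± 0.103 and EEF2 with 0.33 ± 0.107, and these 3 were called by DESeq2, with adjusted p of 0.0222 for EEF1G, 0.0222 for EEF2 and 0.0342 for PABPC1, against 0.209% of all 13422 transcripts (28 in all) called by DESeq2. Their neighbours were EEF1A1 at 0.30 ± 0.129, HNRNPA1 at 0.29 ± 0.0998 and RACK1 at 0.26 ± 0.0905. The lowest 4 were EEF1D at 0.18, TPT1 at 0.18, NAP1L1 at 0.13 and EEF1B2 at 0.13, with SE between 0.0751 and 0.102. Neighbours in this order differed by less than the larger of their SE. All 10 stayed above 0 under every scaling and tool and with each library left out, but 2 of 10 did with footprint genotypes taken from the tag. With a library left out, the members' median ran between 0.20, without wt/wt footprint library 2, and 0.32, without wt/wt footprint library 3.

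In the authors' deposited table the ratio of the Nterm/Nterm to the wt/wt mean efficiency was above 1 for 10 of 10 members, against 50.0% of the 10872 named transcripts. In the same authors' deposited table it ran between 1.08 for EEF1B2 and 1.32 for EEF1G. The authors' deposited table gave an unadjusted p of 0.0237 for EEF2, 0.0267 for HNRNPA1 and 0.0457 for EEF1A1, and above 0.05 for the other 7 members. By the authors' deposited table, 2.37% of all named transcripts had a ratio above 1 with an unadjusted p under 0.05.

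The members differed far more from each other in their footprints per RNA than between genotypes. The ratio of footprint CPM to RNA CPM compares 2 assays within 1 transcript, and its median over all tested transcripts was 1.16 in Nterm/Nterm and 1.16 in wt/wt. EEF1D (1.42 in Nterm/Nterm, 1.26 in wt/wt), EEF1B2 (1.21 in Nterm/Nterm, 1.105 in wt/wt), NAP1L1 (1.06 in Nterm/Nterm, 0.961 in wt/wt) and RACK1 (0.981 in Nterm/Nterm, 0.82 in wt/wt) lay near it. EEF2 was at 0.598 in Nterm/Nterm and 0.474 in wt/wt, TPT1 at 0.313 in Nterm/Nterm and 0.277 in wt/wt, and EEF1A1 at 0.219 in Nterm/Nterm and 0.177 in wt/wt.

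The ratio was lower still in 3 members. PABPC1 was at 0.157 in Nterm/Nterm and 0.123 in wt/wt, HNRNPA1 at 0.0423 in Nterm/Nterm and 0.0345 in wt/wt, and EEF1G at 0.0138 in Nterm/Nterm and 0.0104 in wt/wt. In wt/wt, EEF1G had 158 RNA counts for each footprint, and only 0.0522% of all tested transcripts had a lower ratio. RefSeq lists 75 pseudogenes by symbol for HNRNPA1, 50 for EEF1A1, 14 for TPT1, 13 for PABPC1 and 8 for EEF1G, against 3 for RACK1, 3 for NAP1L1 and none for EEF2, while EEF1B2 and EEF1D have 8 each. The sources used here do not say how footprints that match several transcripts were counted. The levels of these members are therefore uncertain, and the part of pseudogenes in the low ratios was not tested. The ratio was higher in Nterm/Nterm for all 10. Whether such footprints were assigned alike in both genotypes was not tested.

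**Figure D3:**
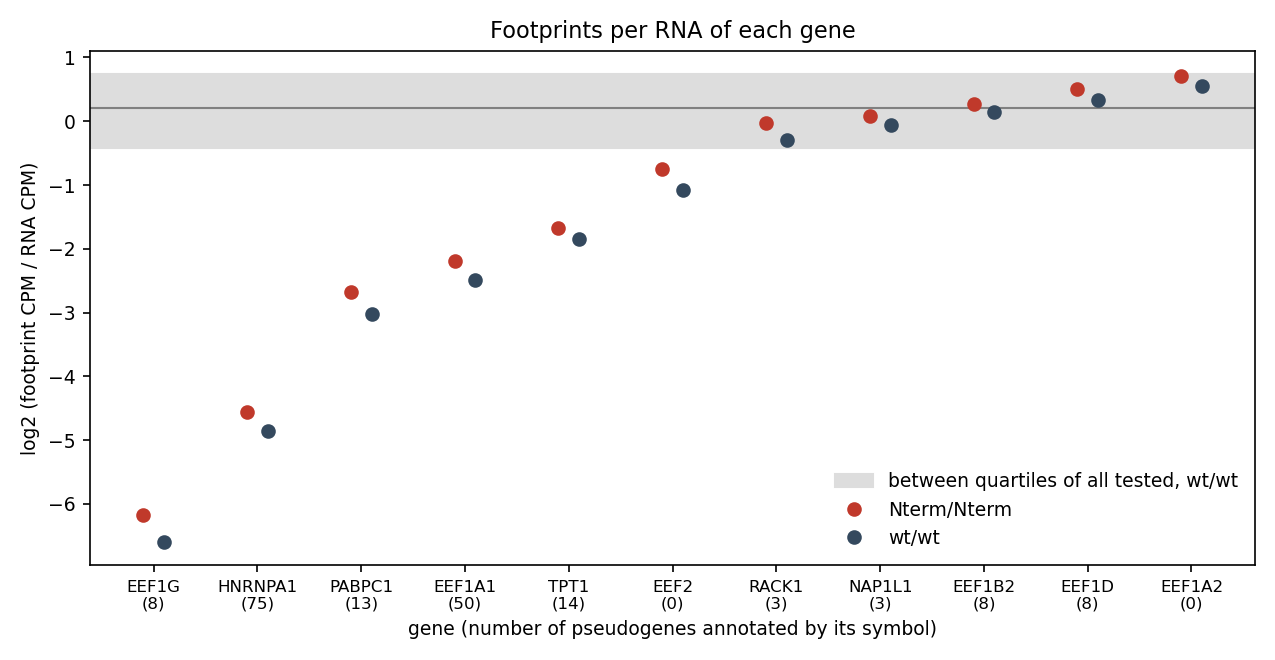
Log2 ratio of mean footprint CPM to mean RNA CPM for each member and EEF1A2, ordered by the wt/wt value, Nterm/Nterm left of wt/wt, with the number of pseudogenes RefSeq names by that symbol in brackets. The grey band runs between the quartiles of all transcripts in wt/wt and the line is their median; EEF1G and HNRNPA1 lie lowest, and each Nterm/Nterm point lies above its wt/wt point.

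EEF1A2, the isoform of eEF1A that mature neurons and muscle take up in place of EEF1A1, is not a member and had changes above 0 in both assays. Its RNA stood at 312, 310.1 and 336.2 CPM in Nterm/Nterm and at 296.8, 282.8 and 307.8 CPM in wt/wt. All Nterm/Nterm libraries lay higher, but the log2 change of 0.11 ± 0.0468 (SE) did not pass the test (adjusted p = 0.122). Its footprints rose, to 530.1, 512.6 and 523.6 CPM in Nterm/Nterm, against 420.2, 407.3 and 477.5 CPM in wt/wt, with a change of 0.26 ± 0.0759 (SE, adjusted p = 0.0258). Over all tested transcripts 4.36% rose in footprints. The call was lost without any 1 footprint library other than wt/wt 3 (adjusted p between 0.0517 without Nterm/Nterm library 2 and 0.131 without wt/wt library 1), among them Nterm/Nterm libraries 1 (0.0967) and 3 (0.0607) and wt/wt library 2 (0.0714).

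Per 100 EEF1A1 counts, the RNA libraries held 4.05, 4.416 and 4.687 EEF1A2 counts in Nterm/Nterm and 3.601, 3.522 and 3.903 in wt/wt. The groups did not overlap (exact permutation test, two-sided p = 0.1, the smallest that 3 against 3 libraries allow). In footprints this count was 31.69, 31.27 and 35.35 in Nterm/Nterm and 27.28, 32.79 and 31.75 in wt/wt, which overlapped (exact permutation p = 0.6). These are ratios of counts within a library, compared between genotypes, and not ratios of protein. In wt/wt the ratio of footprint CPM to RNA CPM was 0.177 for EEF1A1 and 1.471 for EEF1A2. RefSeq lists 50 pseudogenes by symbol for EEF1A1 and none for EEF1A2. How footprints that match several transcripts were counted was not given, so the level of the footprint ratio is uncertain.

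Further genes of elongation and termination, from a list of 26 of which 20 were tested, had few calls in either direction. In RNA 1 rose and none fell, against 7.25% of all tested that rose and 10.6% that fell. In footprints EEF1A2 rose and 1 fell, against 4.36% of all tested that rose and 8.91% that fell. In translational efficiency none was called by edgeR (1 at an unadjusted p under 0.05), and 12 of 20 were fitted above 0, with a median of 0.04. DPH3, which acts in making diphthamide, the modified histidine of eEF2, rose in RNA with a log2 change of 0.22 ± 0.057 (adjusted p = 0.0226), and the call was lost without any 1 RNA library other than Nterm/Nterm 2 (0.0559 to 0.111). DPH6, of the same pathway, fell in footprints by 0.44 ± 0.13 on the log2 scale (adjusted p = 0.0318), at 3.58 RNA CPM in Nterm/Nterm and 4.07 in wt/wt, and its call was lost without Nterm/Nterm footprint library 1 (0.0813) or 3 (0.0836) or wt/wt library 1 (0.098) or 2 (0.207). Of 5 tested mitochondrial elongation factors, which serve the separate ribosomes of mitochondria, none was called in any fit by edgeR, and none had an unadjusted p under 0.05.

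Among 15 tested paralogs of the members, 2 rose and 1 fell in RNA, against 7.25% of all tested that rose and 10.6% that fell. PABPN1, the nuclear poly(A)-binding protein, rose by 0.24 ± 0.054 on the log2 scale (adjusted p = 0.0119) and HNRNPA2B1, a relative of HNRNPA1, rose by 0.14 ± 0.039 (0.0263). GNB4, a G protein β subunit with the same repeat fold as RACK1, fell in RNA by 0.40 ± 0.092 (0.0124) and in footprints by 0.33 ± 0.086 (0.014). In footprints EEF1A2 rose and GNB4 fell, against 4.36% of all tested that rose and 8.91% that fell. Footprint changes were fitted above 0 for 13 of 15 paralogs, against 52.1% of all tested, with a median of 0.07. An unadjusted p under 0.05 in footprints, in either direction, was found for 8 by edgeR. No paralog was called in translational efficiency by edgeR, and none had an unadjusted p under 0.05 there. Efficiency changes were fitted above 0 for 12 of 15, with a median of 0.07. Without wt/wt RNA library 1 all 3 RNA calls were lost (PABPN1 0.0506, HNRNPA2B1 0.153, GNB4 0.0715), as without wt/wt RNA library 2 (0.06, 0.0936 and 0.0537 in the same order), while HNRNPA2B1 was also lost without Nterm/Nterm RNA library 1 (0.0552) or 3 (0.052). The footprint call of GNB4 was lost without Nterm/Nterm footprint library 1 (0.0643) or wt/wt library 1 (0.0698) or 2 (0.0742).

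Other mRNAs of the TOP class were read from 2 lists. Of 77 tested cytosolic ribosomal proteins, 49 fell in RNA, against 10.6% of all tested. None was called in footprints by edgeR or DESeq2 (11 at an unadjusted p under 0.05 by edgeR), against 13.3% of all tested called by edgeR. In translational efficiency 77 of 77 were fitted above 0, against 52.8% of all tested. In footprints 73 of 77 were fitted above 0, and in RNA 76 of 77 below 0. Their medians were -0.17 in RNA, 0.10 in footprints and 0.25 in translational efficiency. The efficiency change was called for none by edgeR, with 64 at an unadjusted p under 0.05, against 2.9% of all tested that were higher. DESeq2 called it for 21, against 0.209% of all tested. The RNA count fell to 5 without wt/wt RNA library 1 and to 7 without wt/wt RNA library 2, and was 29 without Nterm/Nterm RNA library 2 and equally 29 without library 3 of that group.

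Of 20 further TOP mRNAs, among them subunits of the initiation factor eIF3, EIF4B, NPM1 and PABPC4, 4 fell in RNA, against 10.6% of all tested. None was called in footprints by edgeR or DESeq2 (1 at an unadjusted p under 0.05 by edgeR), against 13.3% of all tested called by edgeR. In translational efficiency 20 of 20 were fitted above 0, against 52.8% of all tested. In footprints 17 of 20 were fitted above 0, and in RNA 18 of 20 below 0. VIM, an intermediate filament gene that also stands in the progenitor marker list, fell most, with 266.2 ± 11.5 RNA CPM in Nterm/Nterm and 353.5 ± 19.4 in wt/wt (SD, n = 3 each) and a log2 change of -0.41 ± 0.049 (adjusted p = 0.000456). NOP53, a ribosome assembly factor, had a change of -0.27 ± 0.063 (0.0128), EIF3D of -0.18 ± 0.051 (0.0311) and EIF3H of -0.15 ± 0.042 (0.0271). VIM passed with any 1 library left out. The other 3 missed without wt/wt RNA library 1 (NOP53 0.0819, EIF3D 0.158, EIF3H 0.128) or 2 (0.0536, 0.101 and 0.0684 in the same order), EIF3D also without Nterm/Nterm library 1 (0.0879) or 3 (0.07), and EIF3H also without Nterm/Nterm library 3 (0.0577) or wt/wt library 3 (0.0607). The median efficiency change of the list was 0.16, below the 0.27 of the members, a difference that was not tested.

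**Figure D4:**
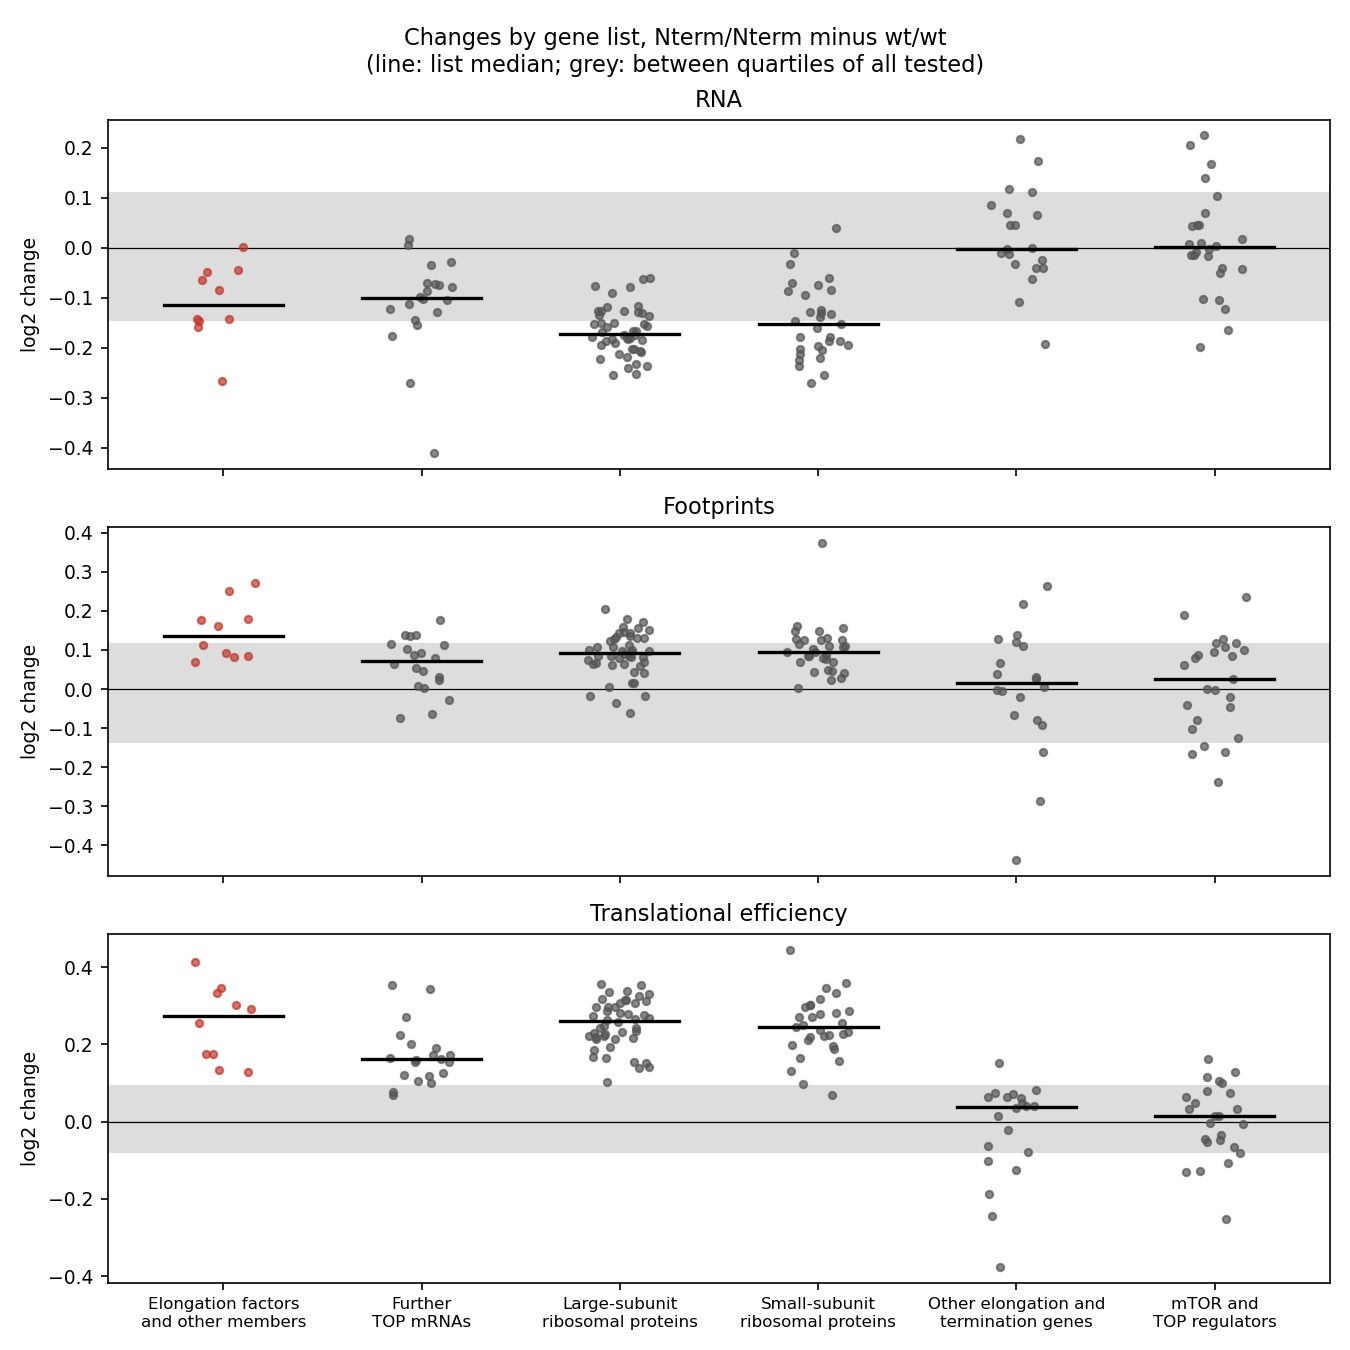
Fitted log2 change (Nterm/Nterm minus wt/wt) of every tested gene of 6 lists in RNA, footprints and translational efficiency; each point is a gene and each black line a list median. The grey band runs between the quartiles of all tested transcripts; the medians of the members and of the other TOP lists lie below 0 in RNA and above it in translational efficiency, while the other elongation genes and the regulators scatter around 0.

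Pyrimidine runs at annotated starts also occurred outside these lists. Outside the members, the ribosomal proteins and the further TOP list, 2629 named transcripts tested in all fits had a run by the same rule, and their median efficiency change was 0.01, the same to 2 decimals as that of all 8745 such transcripts with a promoter entry. For the 612 with the C at the annotated first base it was 0.03. The starts that the neurons used were not mapped, and the part of the run in the efficiency changes was not tested.

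Genes that control TOP mRNAs, including mTOR complex subunits, LARP1 and the 4E-BPs, were read from a list of 28, of which 26 were tested in RNA. In RNA, 3 rose and none fell, against 7.25% of all tested that rose. LARP1 rose by 0.14 ± 0.039 on the log2 scale (adjusted p = 0.0285), TSC1, a subunit of a complex that inhibits mTORC1, by 0.22 ± 0.053 (0.0135), and TIA1, an RNA-binding protein of stress granules, by 0.21 ± 0.059 (0.0312). All 3 missed without wt/wt RNA library 1 (LARP1 0.137, TSC1 0.078, TIA1 0.158) or 2 (0.146, 0.0746 and 0.103 in the same order), LARP1 also without Nterm/Nterm library 1 (0.059) or 2 (0.0511), and TIA1 also without Nterm/Nterm library 2 (0.0691) or 3 (0.0812).

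In footprints 1 of 25 regulators was called, against 13.3% of all tested. EIF4EBP2, the 4E-BP that prevails in neurons, rose by 0.24 ± 0.076 (adjusted p = 0.044). It missed the threshold with library totals (0.0768) and DESeq2 (0.0612), and without Nterm/Nterm footprint library 2 (0.14) or 3 (0.114) or wt/wt library 1 (0.213) or 2 (0.151). Efficiency changes of the regulators were above 0 for 13 of 25, with a median of 0.01, and none was called by edgeR or had an unadjusted p under 0.05.

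The transcripts whose levels followed the members most closely were ribosomal proteins. Over the 12 libraries, with each assay centred on its own mean, high Pearson correlations with the members' mean among 4075 candidates with at least 50 CPM in both assays were those of RPL13A (0.983), RPL32 (0.976), RPL15 (0.961), RPLP1 (0.961), RPS3 (0.954) and RPS4X (0.953). Of the 20 most alike, 16 were ribosomal proteins, of which there were 71 among the candidates. All these values share the same libraries and the genotype difference, so the correlations are descriptions. Within the members, the correlation of a gene with the mean of the other 9 was highest for EEF2 (0.962) and EEF1G (0.951) and lowest for PABPC1 (0.604) and HNRNPA1 (0.597).

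Markers of cell types also moved with genotype. In bulk libraries, fewer cells of a type and less RNA per cell cannot be told apart. Of 14 neuronal markers 9 rose and none fell in RNA, against 7.25% of all tested that rose and 10.6% that fell. Their median was 0.16, and their summed level was 18210 to 19700 CPM in Nterm/Nterm and 15860 to 16980 CPM in wt/wt. That count of 9 was 3 without wt/wt RNA library 1 and 4 without wt/wt RNA library 2. Of the 7 mesenchymal markers named in the files, out of 12 listed, 6 fell and 1 rose, with a median of -0.58 and a summed level of 2793 to 3659 CPM in Nterm/Nterm and 4194 to 5181 CPM in wt/wt.

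Of 7 named progenitor markers, out of 10, 6 fell in RNA, against 10.6% of all tested. Their sums were 919.7 to 1078 CPM in Nterm/Nterm and 1193 to 1289 CPM in wt/wt. Of 5 named markers of dividing cells, out of 8, 3 fell (140 to 171 CPM in Nterm/Nterm, 199.7 to 227.8 CPM in wt/wt), and of 3 named pluripotency markers, out of 8, 2 fell (160 to 193.7 CPM in Nterm/Nterm, 240.1 to 254 CPM in wt/wt). Of 9 glial markers 1 was named and it did not pass the test (22.03 to 26.83 CPM in Nterm/Nterm, 23.51 to 27.77 CPM in wt/wt). None of the named markers was at 0, and defining genes such as POU5F1, NANOG, GFAP, PAX6 and MKI67 were not among the named transcripts. In footprints all 14 neuronal markers were fitted above 0, with a median of 0.23, against 0.14 for the members, while the median was -0.46 for mesenchymal and -0.29 for progenitor markers. Like the members' footprints, those of the neuronal markers stood lowest in wt/wt library 2, and without it their median was 0.14. In translational efficiency the marker medians were 0.03 for neurons, 0.18 for mesenchymal cells and 0.17 for progenitors, against 0.27 for the members. The part of cell make-up in the members' changes was not tested.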

How the data were processed

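RNA and ribosome footprints were counted in 12 libraries, and the deposited table holds whole-number counts per transcript that the authors had not normalised. The submitters' processing notes name build GRCh37 and, without roles, Salmon 1.4.0, Bowtie2 2.3.4.3, limma, edgeR, UMI-tools 1.0.1 and cutadapt 2.4. Per the file headers, another deposited table holds the mean footprint-to-RNA ratio of each genotype, its SD, the ratio of the means and an unadjusted p-value of the authors, and it gave the gene names.

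Groups followed the sample titles. Counts were fitted over all transcripts with edgeR 4.0.16 in R 4.3.3 (TMM scaling, filterByExpr, quasi-likelihood F test, two-sided, Benjamini-Hochberg adjustment, threshold 0.05), separately for RNA and footprints, and, for translational efficiency, as an assay-by-genotype interaction in 1 fit of 12 libraries. TMM scaling makes each change relative to the bulk of transcripts. A log2 change is Nterm/Nterm minus wt/wt, its SE is the size of the change over the square root of F, and 95% intervals use the SE and the test's residual degrees of freedom. CPM uses a library's total over the transcripts that passed filterByExpr in its assay, times its TMM factor. Exact permutation tests were used for single values. The fits were tested on simulated data with planted changes larger than any of the members' changes. That test does not show how the fits perform at the members' sizes.

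Alternatives were other scalings, DESeq2 1.42.0, limma 3.58.1 (voom), no filter, the replicate number as a block, each library left out, and the genotype tag. The 10 members and the 14 lists (250 entries, 210 matched to a name) were chosen with earlier results of these data known. Named were all members, EEF1A2, up to 4 called genes of each list per fit with the smallest p, and the 8 most alike transcripts, of which some are not reported here, while only sums and medians are given for ribosomal protein and marker lists. Start sequences come from RefSeq (GRCh38.p14).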

Additional observations from a re-analysis of the deposited data

How the results depend on the processing

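The members' median change kept its direction and size in RNA and translational efficiency under other scalings, tools, the missing filter, the block and each library left out (RNA -0.14 to -0.09, footprints 0.07 to 0.18, translational efficiency 0.20 to 0.32 over the libraries left out). Calls moved more. With a library left out, all RNA calls ran from 841 to 2851, members called in RNA from 0 to 5, all footprint calls from 954 to 2045 and members called in footprints from 0 to 2, the 2 being EEF1D and EEF1G without wt/wt footprint library 3. EEF1D in RNA then ran from -0.0285 to 0.0354 and TPT1 in footprints from -0.001 to 0.17, so both crossed 0. DESeq2 called 28 transcripts in translational efficiency, of which 3 were members.

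The replicate block raised RNA calls to 4504, with TPT1 as a 6th member (adjusted p = 0.00581), and translational efficiency calls to 6, with no member among these. The other 5 called members had adjusted p between 3e-08 (PABPC1) and 0.000192 (RACK1) in that RNA fit by edgeR. Same-numbered libraries of the 2 genotypes correlated at 0.0845, 0.129 and 0.0427 in RNA and 0.0376, 0.0853 and 0.209 in footprints. In RNA each library correlated best with its own number, but in footprints those numbered 1 did not. RNA and footprints of 1 genotype also matched best by number, at 0.113, 0.199 and 0.306 in Nterm/Nterm and 0.043, 0.0756 and 0.176 in wt/wt. The labels do not state what libraries of 1 number share. A block of RNA and footprints of 1 number and genotype, added after the data were seen, gave 18 translational efficiency calls. Of these, 2 were ribosomal proteins and none was a member.

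With footprint genotypes from the tag, the footprint median was -0.14 and the members were at -0.16 (EEF1A1), -0.0821 (EEF1B2), -0.18 (EEF1D), -0.27 (EEF1G), -0.18 (EEF2), -0.0924 (TPT1), -0.0837 (PABPC1), -0.07 (NAP1L1), -0.25 (HNRNPA1) and -0.11 (RACK1). EEF1A2 was then at -0.26, EIF4EBP2 at -0.24, DPH6 at 0.44 and GNB4 at 0.33. Translational efficiency had 4250 calls and a member median of -0.0216, with EEF1A1 at -0.0219, EEF1B2 at -0.036, EEF1D at -0.18, EEF1G at -0.13, EEF2 at -0.0214, TPT1 at -0.00987, NAP1L1 at -0.00718 and HNRNPA1 at -0.21. These reversals follow from the exchanged labels. A run of at least 8 pyrimidines opened by a C within 5 bases of the start was found in 3 members (EEF1B2, TPT1 and RACK1). Depth limits EEF1G and HNRNPA1, with 165 to 414 footprints per library.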
